A study of Sus scrofa with 8 samples.

Results

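The 9 genes described here carry the retinal response to interferon from the cell surface to the nucleus: the receptor chains IFNAR1, IFNAR2, IFNGR1 and IFNGR2, the transcription factors STAT2, IRF1, IRF7 and IRF9, and the feedback inhibitor SOCS1. They were taken by name, as 9 of the 35683 genes in the deposited count matrices, and their raw unique molecular identifier (UMI) counts were summed per retina within classes of nuclei gated on marker genes, none of which is among the 9. The question was which retinal cell classes hold these transcripts in vehicle-injected retinas, and how the levels differed in retinas injected with an adeno-associated virus (AAV).

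The study profiled nuclei from 8 retinas of 6 female Yucatan minipigs, 3 to 5 months old. There were 4 groups, each with 2 retinas. The AAV week 2 group was the left (OS) and right (OD) eye of animal 7221 and the Vehicle week 2 group both eyes of animal 7222, so each had 1 animal, whereas AAV week 4 (left eyes of animals 7248 and 7249) and Vehicle week 4 (left eyes of animals 7250 and 7251) had 2 animals each. AAV-injected eyes had received AAV2.7m8, a capsid variant selected for entering the retina from the vitreous, at 5e11 vector genomes per eye, with green fluorescent protein driven by CAG, a promoter active in most cell types. Vehicle eyes were injected with the vehicle alone. All animals, controls included, were given the hyaluronidase Vitrase into the vitreous before dosing and methylprednisolone every week, so no group was free of injection or of corticosteroid. The batch label was the group label, and batch and treatment therefore cannot be told apart.

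Interferons alpha, beta and epsilon, the type I interferons, bind a receptor made of IFNAR1 and IFNAR2, and interferon gamma, the type II interferon, binds IFNGR1 with IFNGR2. The type I receptor leads to a complex that holds STAT2 and IRF9 and turns on antiviral genes, among them IRF7, which amplifies interferon production, and STAT2 and IRF9 themselves in many cells. The type II receptor turns on IRF1, an activator of antigen presentation genes, and SOCS1 blocks the Janus kinases under both receptors.

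The matrices held 388491 barcodes, with 121544835 to 173614051 UMIs per retina. After removal of 6.95% to 12.9% of barcodes per retina for their mitochondrial share, 350537 nuclei were kept, of which 284302 (81.1%) fell in a class. Pairs of retinas shared 486 to 774 barcode sequences, at most 1.56% of the smaller one. Rods, cones, bipolar, amacrine and horizontal cells, retinal ganglion cells (RGCs) and Müller glia are named below for the marker lists that gated them and are rod-like, cone-like and so on. A small glial class rested on fewer than 3 well detected markers and is called the PAX2 and GFAP glia. The class gated on microglial and macrophage markers is called the myeloid class: at AAV week 4 it held 1445 and 908 nuclei, against 73 and 68 in the vehicle eyes, its level of P2RY12, a marker of resident microglia, was 476 and 676 UMIs per 1000000 of the class (CPM) against 1773 and 1778, and the macrophage marker CD163 stood at 2123 and 1310 CPM against 0 and 8.08. T or NK cells (1139 and 910 nuclei) and B or plasma cells (292 and 416 nuclei) were gated in numbers only at AAV week 4, where every other retina had at most 18 and 4 nuclei of them.

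In vehicle retinas, 11 classes had at least 20 nuclei in each of the 3 animals and were compared. Endothelial nuclei did not (18 nuclei in retina 7250) and are given apart. Among the 11 classes, the receptor chains were highest in the myeloid class and near their lowest in photoreceptors. IFNAR2, the chain that binds type I interferon most tightly, reached 1785, 2228 and 2392 CPM in the myeloid class of animals 7222, 7250 and 7251, against 6.49, 7.85 and 9.28 CPM in cones. Compared with the mean of the other 10 classes, with animal as a block, its log2 difference in the myeloid class was 5.62 (standard error 0.11, edgeR adjusted p = 2.07e-30). Below the myeloid class came a middle group of PAX2 and GFAP glia, Müller glia and RGCs, with means of 99.2, 90.9 and 79.7 CPM and overlapping animals. Amacrine cells followed at 47.9 CPM and did not overlap the RGCs. Pericytes had 34.5 CPM, on 29 UMIs, and horizontal cells 19.1. Bipolar cells, rods, RPE and cones had 13.4, 12.5, 11.3 and 7.87 CPM, each overlapping the next. IFNAR2 was called higher in 4 of 11 classes and lower in 5, the rods (−2.10, standard error 0.13) and cones (−2.65, standard error 0.14) among the latter. Stray myeloid RNA was not subtracted. In the week 4 vehicle retinas the myeloid markers summed to 16.8 and 17.0 CPM in rods, against 3343 and 3710 in the myeloid class. The share of such RNA in the low IFNAR2 levels was not tested.

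IFNAR1, the other type I chain, was spread far more evenly. Its vehicle means over the 11 classes ran from 64.7 CPM in the myeloid class (58.7, 62.8 and 72.7 in the 3 animals) to 13.5 CPM in cones (11.9, 13.6 and 15.0). Between these, each class overlapped the next in the order, from pericytes at 30.1 (on 18 UMIs) to RPE at 14.2. Amacrine cells, RGCs, PAX2 and GFAP glia, bipolar cells, Müller glia, horizontal cells and rods lay between pericytes and RPE, in that order. It was called higher in the myeloid class, amacrine cells and RGCs and lower in rods, cones and RPE, with log2 differences no larger than 1.17 (standard error 0.28). Several of these calls were unstable: that in the myeloid class was lost without animal 7222, that in RPE without 7222 or 7250, and that in RGCs under 4 of 8 alternatives.

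The interferon gamma receptor chains divided the classes differently. IFNGR1, the ligand-binding chain, had 192, 102 and 226 CPM in the myeloid class, followed by pericytes (mean 25.3, on 20 UMIs) and RGCs (12.4). The other 8 of the 11 classes lay between 5.58 and 7.94 CPM, each overlapping the next. IFNGR2, the signalling chain, stood at 190.0, 298 and 137 CPM in the myeloid class, 39.5, 46.3 and 48.1 in PAX2 and GFAP glia and 24.7, 25.6 and 27.5 in RGCs, and none of these 3 classes overlapped the next. RPE (on 28 UMIs), amacrine cells, horizontal cells and pericytes (on 7 UMIs) lay together between 10.5 and 15.0 CPM. Müller glia (5.87 CPM) and bipolar cells (3.22) came next, and rods (2.03) and cones (1.88) were lowest and overlapped one another. Against the mean of the other classes, IFNGR2 was called higher in 5 classes and lower in 4, from 4.13 (standard error 0.25) in the myeloid class to −2.82 (standard error 0.25) in cones. The higher calls in amacrine and horizontal cells were lost without animal 7222.

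STAT2 had a different order, with photoreceptors at the top and the myeloid class still high. It was highest in rods, with 88.4, 107 and 112 CPM in the 3 vehicle animals, and in cones, with 69.4, 84.6 and 91.8, and lowest in horizontal cells (14.1, 14.3 and 15.1) and RGCs (11.6, 16.0 and 13.3). The log2 differences were 1.64 (standard error 0.07, edgeR adjusted p = 1.46e-21) in rods and −1.54 (standard error 0.12) in RGCs. In the order of means, rods, cones, the myeloid class and RPE each overlapped the next, bipolar cells (42.0 CPM), PAX2 and GFAP glia (33.2) and Müller glia (30.0) each overlapped the next, and amacrine cells (22.5) lay above horizontal cells and RGCs without overlap. Pericytes (0 to 39.6 CPM, on 20 UMIs) overlapped amacrine cells, horizontal cells and RGCs.

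IRF9, the DNA-binding partner of STAT2, was highest in the myeloid class (44.6, 31.4 and 40.4 CPM) and in PAX2 and GFAP glia (24.8, 28.4 and 28.4). Pericytes (mean 15.7 CPM, on 8 UMIs) overlapped the PAX2 and GFAP glia above them and rods (14.9) and Müller glia (13.5) below. Cones, amacrine cells, bipolar cells and RGCs lay between 2.44 and 3.91. Horizontal cells held 9 UMIs and RPE 4 over all vehicle animals. Rods were therefore high in both STAT2 and IRF9, whereas cones were high in STAT2 and called lower in IRF9 (−0.61, standard error 0.18), a call that ended and changed sign without animal 7222 (0.15). IRF9 was called higher in 4 classes and lower in 6, and none of the 6 lower calls held without animal 7222.

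IRF1 and IRF7 were sparse in vehicle retinas. IRF1 was highest in the myeloid class, on 11 UMIs in all (7.04, 47.1 and 16.2 CPM), then in bipolar cells (3.00, 4.72 and 3.53), and lowest in cones (mean 0.686) and rods (0.597), with log2 differences of 2.78 (standard error 0.64) in the myeloid class and −2.08 (standard error 0.29) in rods. The IRF1 calls in rods and cones were lost without animal 7222, and that in the myeloid class without animal 7250. IRF7 was called higher in bipolar cells (3.13, 2.57 and 3.42 CPM), Müller glia (1.30, 2.34 and 1.88) and PAX2 and GFAP glia (2.11, 4.73 and 3.39), and lower in none by edgeR, with 0 lower at an unadjusted p under 0.05. The call in PAX2 and GFAP glia was lost under the gate that left out nuclei with markers of a second class. The RGC, RPE and pericyte classes gave 1, 1 and 0 UMIs of IRF7, too few for a call of lower. They are also part of the mean behind the higher calls of IRF7. SOCS1 had at most 12 vehicle UMIs in any class, too few to be tested or ordered.

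The endothelial class, 40 and 64 nuclei in the eyes of animal 7222 and 18 and 40 in retinas 7250 and 7251, was too small for the test. IFNAR1 there had 72.4, 29.4, 112.7 and 118 CPM in those 4 vehicle retinas, so at week 4 it stood above the myeloid class, on 7 and 16 UMIs. IFNAR2 had 196, 95.1, 129 and 111 CPM and IFNGR1 8.52, 15.8, 16.1 and 51.6, while IFNGR2 ranged from 0 to 80.5 CPM. These levels lay above those of rods and cones for IFNAR1 and IFNAR2 in every vehicle retina. IFNGR1 rested on 2, 7, 1 and 7 UMIs, with the left eye of 7222 and retina 7250 under 3 counts, so it is not ordered.

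Over all 11 classes, 27 of 88 tested pairs of member and class (30.7%) were called higher than the mean of the other classes and 28 (31.8%) lower, where 26.5% and 16.7% of all gene and class pairs were. These were levels of transcript in nuclei: the protein at the cell surface was not measured.

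**Figure D1:**
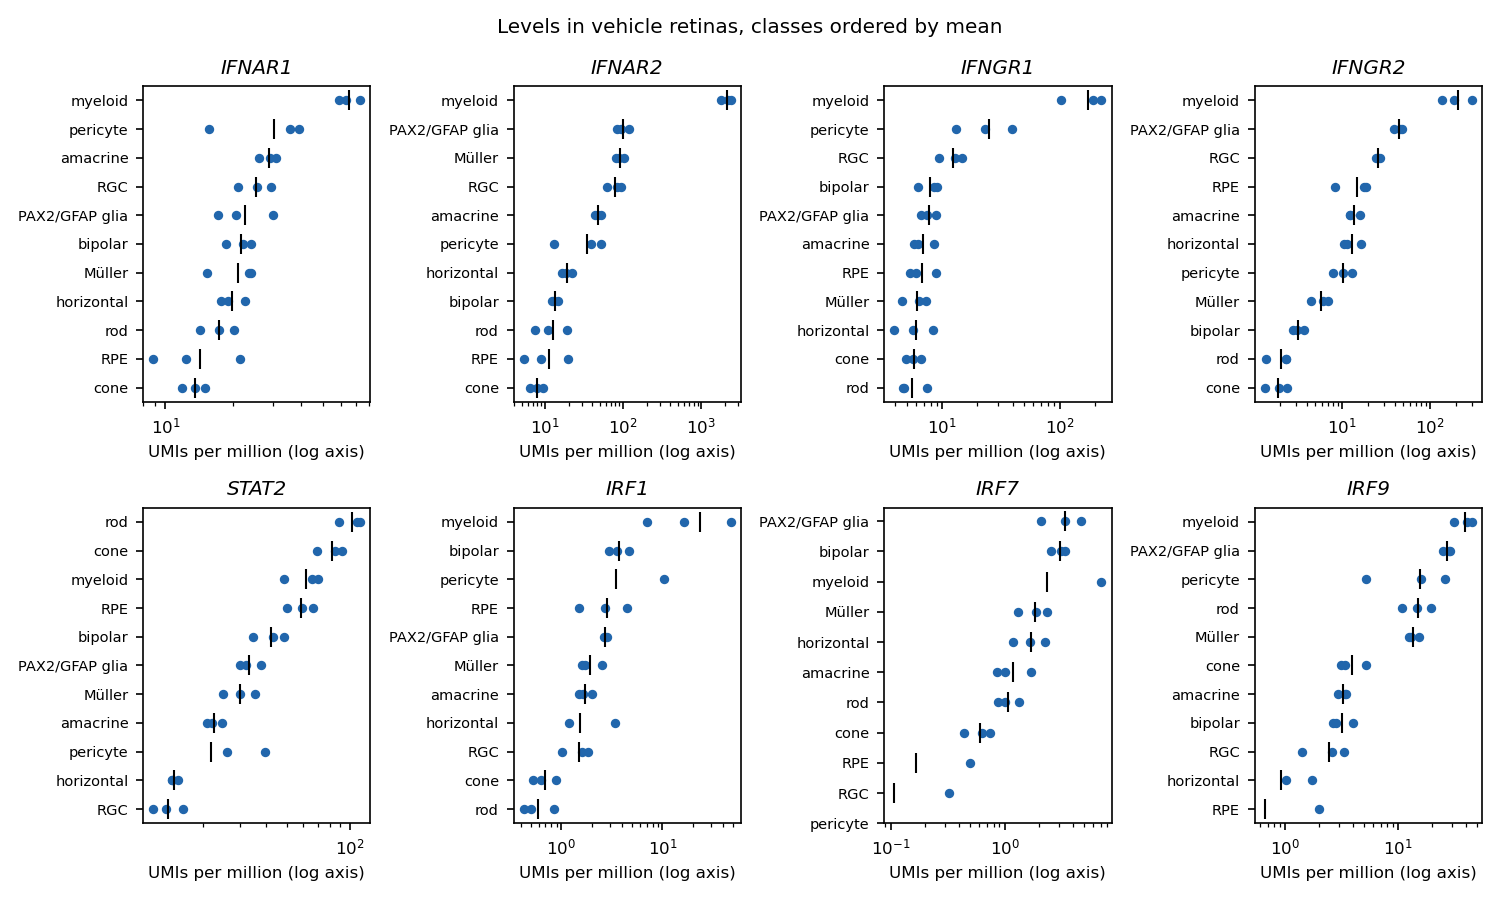
Levels of the 9 genes except SOCS1, which is not drawn, in vehicle retinas, in UMIs per 1000000 of a class (log axis), by cell class. Points are the 3 vehicle animals, bars their mean, and animals at 0 are not drawn on the log axis. IFNAR2 in the myeloid class, at 1785 to 2392 CPM, stands far above its level in every other class drawn, while STAT2 is highest in rods and cones.

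The regions before the start sites of IRF9, IRF1, STAT2 and IRF7 are shown because each of these 4 genes was called higher in 7 or more classes at week 4. The sequences come from RefSeq (Sscrofa11.1) and run from 250 bases before the annotated start to 50 bases after it, on the gene's strand. Each window was searched on both strands for 2 motifs, GAAANNGAA, the core of the interferon-stimulated response element bound by the complex with STAT2 and IRF9, and TTCNNNGAA, the core of the gamma-activated site bound by STAT homodimers. Capitals mark matches. The windows lie at chr7:75139592-75139891 (IRF9), chr2:134783597-134783896 (IRF1), chr5:21748911-21749210 (STAT2) and chr2:375523-375822 (IRF7), all on the minus strand.
IRF9: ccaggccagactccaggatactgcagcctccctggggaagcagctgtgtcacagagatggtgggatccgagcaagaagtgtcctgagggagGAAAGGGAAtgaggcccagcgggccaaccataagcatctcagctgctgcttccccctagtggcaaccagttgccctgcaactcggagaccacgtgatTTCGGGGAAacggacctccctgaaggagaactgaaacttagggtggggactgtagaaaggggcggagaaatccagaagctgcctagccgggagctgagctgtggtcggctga
IRF1: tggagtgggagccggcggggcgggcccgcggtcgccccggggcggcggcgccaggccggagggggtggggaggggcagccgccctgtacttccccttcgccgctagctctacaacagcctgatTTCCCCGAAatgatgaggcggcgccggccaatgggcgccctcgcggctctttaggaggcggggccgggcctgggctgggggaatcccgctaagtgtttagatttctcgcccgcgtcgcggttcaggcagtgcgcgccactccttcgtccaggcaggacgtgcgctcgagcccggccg
STAT2: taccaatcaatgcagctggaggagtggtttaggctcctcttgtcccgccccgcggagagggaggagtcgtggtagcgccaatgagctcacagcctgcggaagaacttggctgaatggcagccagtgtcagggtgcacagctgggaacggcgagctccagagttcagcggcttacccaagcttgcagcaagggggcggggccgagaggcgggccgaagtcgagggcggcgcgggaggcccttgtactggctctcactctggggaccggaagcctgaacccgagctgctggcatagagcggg
IRF7: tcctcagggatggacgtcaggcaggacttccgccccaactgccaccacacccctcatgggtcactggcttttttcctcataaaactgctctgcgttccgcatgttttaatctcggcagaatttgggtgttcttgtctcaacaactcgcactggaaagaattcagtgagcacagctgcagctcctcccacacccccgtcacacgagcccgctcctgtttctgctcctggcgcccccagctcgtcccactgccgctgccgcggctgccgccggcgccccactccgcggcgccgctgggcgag
The IRF9 window held GAAAGGGAA, starting 159 bases before the start site, and TTCGGGGAA, 62 bases before it. The IRF1 window held TTCCCCGAA, 127 bases before the start. Neither string was in the STAT2 or IRF7 window. Of the other members, IFNAR1 held TTCCCGGAA 188 bases and IFNGR1 TTCCTCGAA 170 bases before the start, and IFNAR2, IFNGR2 and SOCS1 held neither. Among 19556 promoter windows of the same length, 7.94% held the first motif and 7.12% the second. A match is a string of letters and not evidence of binding.

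At week 4, the transcription factors rose in 7 or more classes each and the receptor chains in 0 to 6. Of 81 pairs of member and class, 74 had enough counts for a test in the 9 classes with at least 20 nuclei per retina. By edgeR, 45 of these (60.8%) were called higher in AAV-injected retinas and none lower, with 4.34% of all gene and class pairs called higher and 3.78% lower. At an unadjusted p under 0.05, 1 member pair was lower, IFNAR2 in the myeloid class, which DESeq2 called (adjusted p = 0.00545). Both AAV retinas lay above both vehicle retinas in all 45 called pairs, and in 63 of all 74 tested pairs. The share over all genes is not given, so this adds nothing to the calls. Of the 45, 1 (IRF7 in the myeloid class) had 0 vehicle UMIs, so it passed the count filter through the AAV retinas alone and could differ in 1 direction only. Among the 72 pairs with vehicle UMIs, 44 were called higher. The share of members called higher exceeded that of all genes in each class: 5 of 8 tested in rods (all genes 5.55%), 4 of 8 in cones (1.65%), 6 of 9 in bipolar cells (1.97%), 4 of 9 in amacrine cells (2.23%), 6 of 8 in horizontal cells (2.88%), 5 of 7 in RGCs (2.52%), 7 of 8 in Müller glia (11.2%), 3 of 8 in PAX2 and GFAP glia (7.24%) and 5 of 9 in the myeloid class (4.12%). The median log2 difference of the tested members ran from 0.66 in PAX2 and GFAP glia to 2.30 in horizontal cells, beside medians over all tested genes between −0.01 and 0.13.

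**Figure D2:**
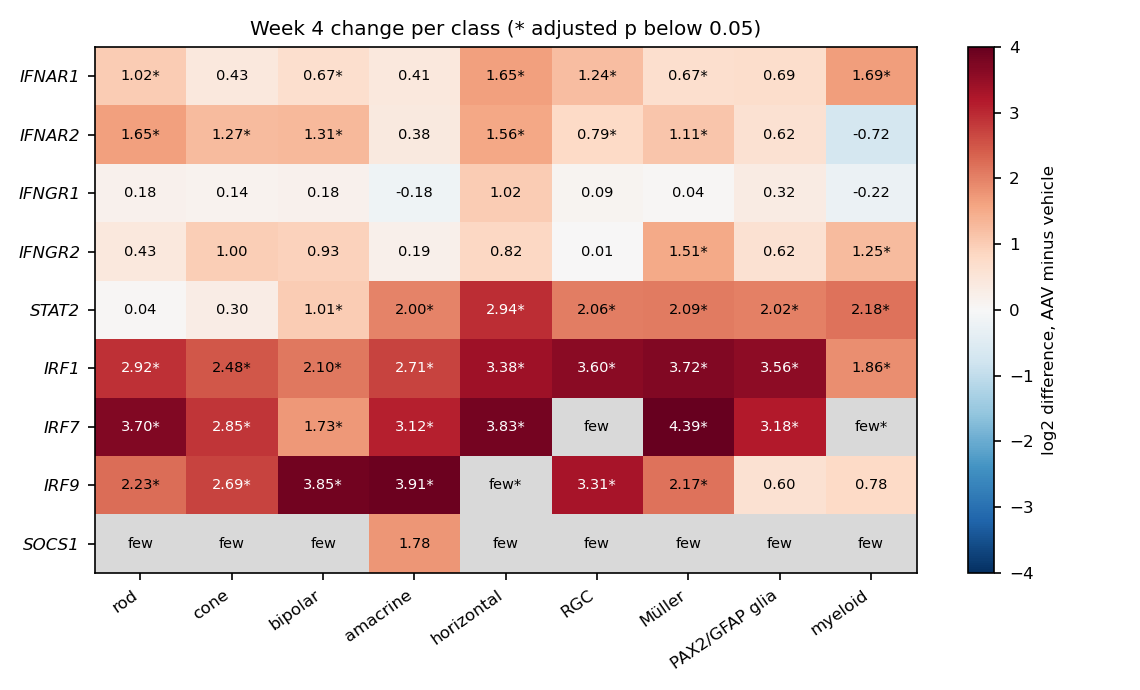
Difference between AAV and vehicle retinas at week 4 on the log2 scale, by gene (rows) and cell class (columns), 2 retinas per group. Colour is clipped at 4 in either direction, a star marks an adjusted p under 0.05 and "few" marks pairs with 3 or fewer vehicle UMIs. IRF1 and IRF7 are starred in every class in which they were tested, STAT2 lacks a star in rods and cones, and IFNGR1 has none.

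IRF1, the activator of antigen presentation genes, was called higher in 9 of 9 classes. In Müller glia it had 31.0 and 23.8 CPM in the AAV retinas 7248 and 7249 and 1.72 and 2.51 CPM in the vehicle retinas 7250 and 7251, a log2 difference of 3.72 (standard error 0.25, edgeR adjusted p = 0.000109), or 13.2-fold. PAX2 and GFAP glia had 32.5 and 31.7 against 2.84 and 2.71 CPM, 11.8-fold. The lowest AAV level in either glial class, 23.8 CPM, lay far above the highest vehicle level, 2.84 CPM. RGCs, with 20.0 and 21.4 against 1.86 and 1.62 CPM, differed by 12.2-fold. Even in rods and cones, where its vehicle level was lowest, IRF1 had 5.52 and 4.56 against 0.854 and 0.508 CPM and 4.35 and 3.79 against 0.630 and 0.897 CPM. The smallest called log2 difference was in the myeloid class, 1.86 (standard error 0.42), on 8 vehicle UMIs (111 and 99.4 against 47.1 and 16.2 CPM), and it was lost under 4 of 13 alternatives.

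IRF7, the amplifier of type I interferon production, was called higher in each of the 7 classes that were tested and held vehicle UMIs of it. Müller glia went from 2.34 and 1.88 CPM to 40.7 and 48.5, a log2 difference of 4.39 (standard error 0.21, edgeR adjusted p = 2.21e-05), or 21.0-fold. Rods had 14.9 and 13.1 against 1.01 and 1.34 CPM (13.0-fold) and horizontal cells 36.6 and 23.9 against 2.28 and 1.68 (14.2-fold). The bipolar cells had 10.4 and 9.18 against 2.57 and 3.42 CPM, 3.32-fold, a call lost without vehicle retina 7250. In the myeloid class the 2 vehicle retinas held 0 UMIs of IRF7 in 251185 and the AAV retinas 348 in 7481983, so that the level was at least 3.89-fold higher when 3 counts over the vehicle group are taken as the floor. This bound was 1.92-fold without vehicle retina 7250 and 1.98-fold without 7251. The myeloid pair also passed the test, but it entered through the AAV retinas alone, and the call was lost without 7250. RGCs were not tested, with 32 UMIs against 1, a ratio of 31.3 with a 95% counting interval from 5.24 to 1276. Of the 32, retina 7248 held 24 and 7249 held 8, and the ratio was 16.5 without 7248 and 16.8 without vehicle retina 7250, which held 0. Without 7251, which held the 1 vehicle UMI, the level was at least 4.86-fold higher. This interval, and the others on UMI counts below, covers counting error only.

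IRF9, the partner of STAT2, was called higher in 7 classes, all but PAX2 and GFAP glia and the myeloid class. Amacrine cells had 47.6 and 56.5 against 3.35 and 3.48 CPM, a log2 difference of 3.91 (standard error 0.16), or 15.0-fold. Bipolar cells had 46.0 and 48.3 against 2.67 and 4.00 CPM, 14.4-fold. Horizontal cells held 173 UMIs against 3, a ratio of 63.8 with a counting interval from 21.5 to 312. The AAV retinas had 47.9 and 61.9 CPM, and all 3 vehicle UMIs lay in retina 7250 (1.71 CPM) with 0 in 7251. The ratio was 31.6 without 7251, and without 7250 the level was at least 32.2-fold higher. The 2 classes with the highest vehicle levels were those not called: PAX2 and GFAP glia had 45.4 and 36.8 against 28.4 and 28.4 CPM (log2 difference 0.60, standard error 0.24, edgeR adjusted p = 0.129) and the myeloid class 63.8 and 47.7 against 31.4 and 40.4 CPM (0.78, standard error 0.45, edgeR adjusted p = 0.366). Across the 9 classes, the AAV week 4 levels of IRF9 spanned 24.1 to 66.9 CPM per retina, and the vehicle week 4 levels 0 to 40.4.

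STAT2, the partner that carries the activation domain of the complex, was called higher in 7 classes but not in photoreceptors. Rods had 117 and 94.3 CPM in the AAV retinas and 107 and 112 in the vehicle retinas, a log2 difference of 0.04 (standard error 0.12). Cones had 115 and 93.4 against 84.6 and 91.8 CPM (0.30, standard error 0.11, edgeR adjusted p = 0.208). Elsewhere the groups were far apart: amacrine cells had 96.5 and 91.2 against 22.1 and 24.6 CPM (3.99-fold), Müller glia 146 and 128 against 29.9 and 35.1 CPM (4.25-fold) and horizontal cells 162 and 74.6 against 14.3 and 15.1 CPM (7.70-fold). The bipolar cells, intermediate in vehicle retinas, had 98.03 and 83.3 against 43.0 and 48.5 CPM (2.01-fold), a call lost without vehicle retina 7250.

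**Figure D3:**
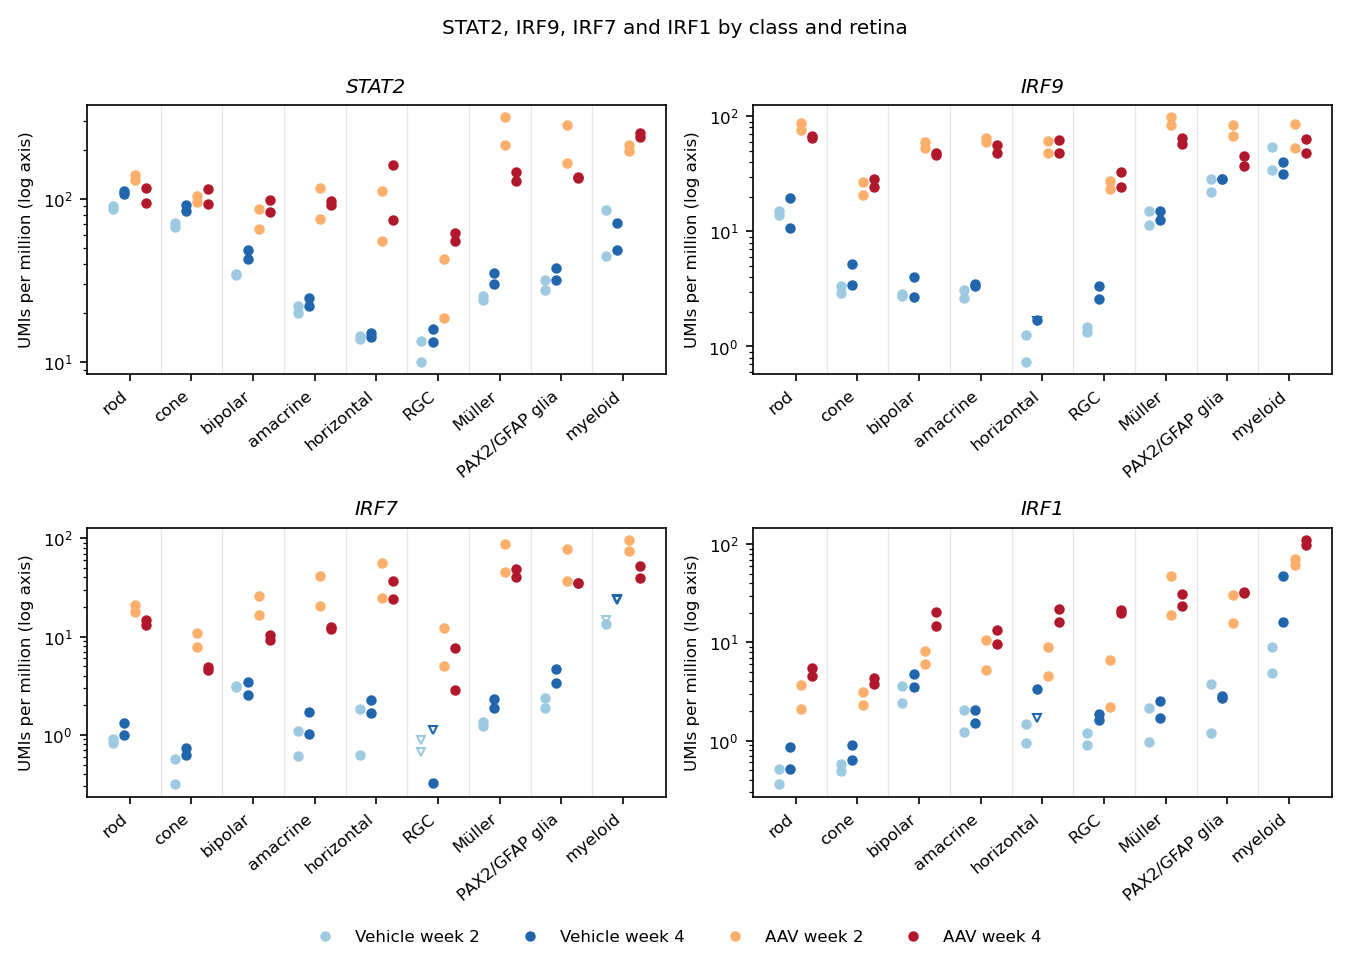
STAT2, IRF9, IRF7 and IRF1 by cell class and retina, in UMIs per 1000000 of the class (log axis). Each point is a retina, coloured by group, and an open triangle marks a retina with 0 UMIs, drawn at the level of 3 counts. In rods and cones STAT2 of the AAV week 4 retinas, at 93.4 to 117 CPM, sits close to that of the vehicle week 4 retinas, at 84.6 to 112.

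The type I receptor chains rose in 6 classes each. All 6 IFNAR2 calls ended with week as a covariate over 3 against 3 animals, as did those of IFNAR1 in rods and RGCs, and IFNAR2 in cones, bipolar and horizontal cells and IFNAR1 in rods were also lost without vehicle retina 7250, and IFNAR2 in RGCs without AAV retina 7248. IFNAR2 in Müller glia had 223 and 185 CPM against 88.1 and 102, a log2 difference of 1.11 (standard error 0.14, edgeR adjusted p = 0.00182). Rods had 50.6 and 37.1 against 10.8 and 19.2 CPM (3.14-fold), cones 24.2 and 15.6 against 7.85 and 9.28 (2.42-fold), bipolar cells 39.4 and 28.5 against 13.2 and 14.7 (2.48-fold) and horizontal cells 79.5 and 45.7 against 18.8 and 21.9 (2.95-fold). RGCs, already high in vehicle retinas, had 181 and 112 against 83.5 and 93.4 CPM (1.73-fold). In the myeloid class IFNAR2 was below the vehicle levels in both AAV retinas, at 1416 and 1129 against 2228 and 2392 CPM, with a log2 difference of −0.72 (standard error 0.18) that did not pass the threshold in edgeR (adjusted p = 0.0568) and passed it in DESeq2. IFNAR1 in the same class was higher, at 195 and 200 against 62.8 and 72.7 CPM (3.22-fold), on 8 and 9 vehicle UMIs. The makeup of the myeloid class differed between these groups, and its part in both differences was not tested. IFNAR1 was also higher in horizontal cells (71.6 and 61.2 against 17.7 and 22.4 CPM, 3.15-fold), RGCs (63.1 and 49.9 against 29.3 and 21.0, 2.36-fold) and rods (37.7 and 33.1 against 17.3 and 20.0, 2.03-fold). The IFNAR1 difference in Müller glia was 1.59-fold, and that in bipolar cells, 1.59-fold, was lost under 7 of 13 alternatives.

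The interferon gamma receptor chains were called in fewer classes, 0 for IFNGR1 and 2 for IFNGR2, and no test compared the receptors with one another. IFNGR1 was called in none of 9 classes by edgeR: its log2 differences lay between −0.22 in the myeloid class and 1.02 in horizontal cells (standard errors 0.33 and 0.44), 1 of the 9 had an unadjusted p under 0.05, that in horizontal cells, and DESeq2 called 0. IFNGR2 was called higher in Müller glia, with 23.9 and 11.8 against 6.16 and 6.98 CPM (2.86-fold, lost without AAV retina 7248 and with week as a covariate), and in the myeloid class, with 520 and 424 against 298 and 137 CPM (2.38-fold, lost under 3 of 13 alternatives). The makeup of the myeloid class differed between these groups. In RGCs IFNGR2 had 27.4 and 23.9 against 25.6 and 27.5 CPM, a log2 difference of 0.01 (standard error 0.21).

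**Figure D4:**
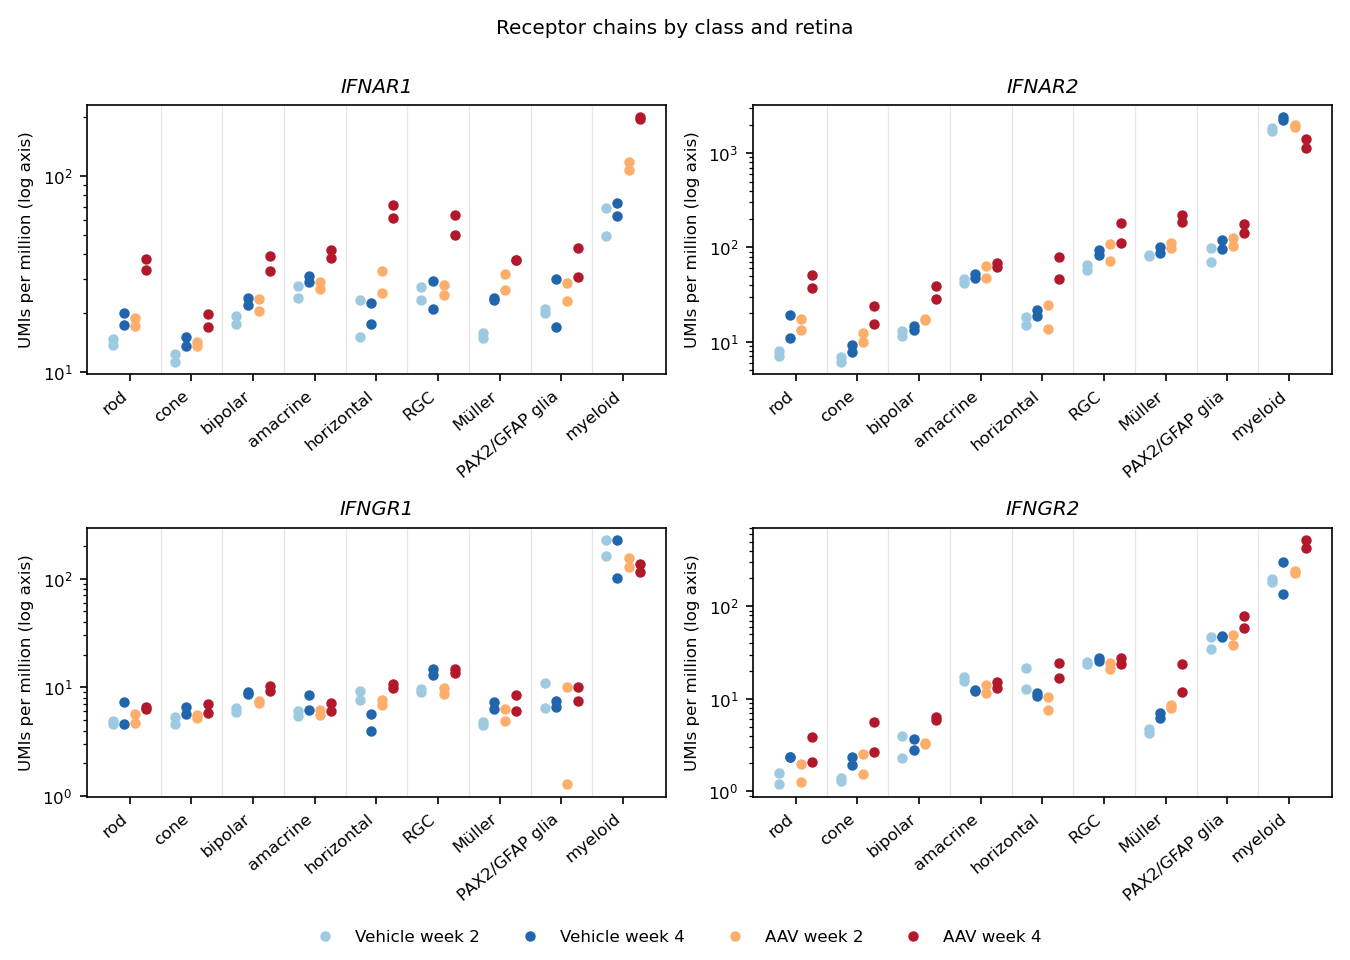
The 4 receptor chains by cell class and retina, in UMIs per 1000000 of the class (log axis), drawn as for the transcription factors. At week 4, IFNAR2 in the myeloid class is at 2228 and 2392 CPM in vehicle and 1416 and 1129 in AAV retinas, a difference that did not pass in edgeR, and in rods at 10.8 and 19.2 and at 50.6 and 37.1.

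Immune nuclei and their RNA moved with the same groups, and their part in these differences was not tested. In rods the summed level of the 12 myeloid markers was 32.7 and 23.2 CPM at AAV week 4 and 16.8 and 17.0 in the vehicle retinas, all 12 detected in each, against 3267 to 4069 in the myeloid class itself. The T or NK list in rods gave 20.8 and 13.5 against 6.83 and 7.75 CPM and the B or plasma list 55.5 and 76.3 against 18.5 and 20.3. All 10 markers of each lymphocyte list were detected in rods of both AAV retinas, whereas in the vehicle retinas 7 or 8 of the T or NK list (CD3D and KLRK1 at 0 in both) and 7 of the B or plasma list (MS4A1, CD79B and IGHM at 0) were. Over the neurons and glia at week 4, the myeloid list ranged from 18.9 to 52.5 CPM in AAV and from 6.97 to 33.3 in vehicle retinas, and the B or plasma list from 25.8 to 101 and from 11.3 to 77.5. The Müller glia also changed in yield, with 1681 and 620 nuclei of a median 4896 and 5260.5 UMIs at AAV week 4 against 5263 and 5727 nuclei of 2148 and 1934. The 45 calls became 44 in nuclei with at least 1000 UMIs and 44 under a gate that left out nuclei with markers of a second class.

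Lymphocytes held all members but SOCS1 in both of their classes at AAV week 4. SOCS1 was at 0 and 2 UMIs in B or plasma cells. IFNAR2 had 399 and 353 CPM in T or NK cells and 367 and 302 in B or plasma cells of AAV week 4, between the myeloid class and the neurons. STAT2 had 161 and 180 and 243 and 217 CPM, IRF9 69.0 and 70.2 and 119 and 97.8, and IRF1 55.7 and 48.9 and 86.0 and 78.6. No vehicle counterpart with at least 20 nuclei existed, so no change can be given for them.

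The endothelial, pericyte and RPE classes had under 20 nuclei in at least 1 week 4 retina and were not tested there. STAT2 at week 2 had 89.2 and 144 CPM in endothelial nuclei of the right and left AAV eye against 45.3 and 38.3 in the vehicle eyes, 199 and 71.7 against 31.6 and 22.0 in pericytes, and 105 and 86.1 against 54.3 and 47.9 in RPE. Each arm was 1 animal at week 2, so its 2 eyes are not replicates. In pericytes the left AAV eye held 9 UMIs of STAT2 and the vehicle eyes 5 each. IRF9 in endothelial nuclei had 113.2 and 58.0 against 9.05 and 21.3 CPM, and at week 4, on 2 to 11 UMIs a retina, 75.9 and 114 against 32.2 and 14.7 CPM.

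SOCS1, the feedback inhibitor, gave 552 UMIs in all gated nuclei, and the 3 classes with enough counts (bipolar, amacrine and myeloid) were not called by edgeR, with 3 at an unadjusted p under 0.05, nor by DESeq2, which called 0. Its highest levels at AAV week 4 were in T or NK cells, 11.5 and 13.3 CPM, and in the myeloid class, 9.21 and 14.2 CPM. The vehicle myeloid class had 0 UMIs, but its depth allowed a level of up to 11.9 CPM, so no fold can be given. Müller glia held 15 UMIs against 0, at least 10.75-fold higher, with 13 of them in retina 7248, and without it the 2 that remain lie under the floor and give no fold. The bound was 5.36-fold without vehicle retina 7250 and 5.39-fold without 7251. Rods held 28 against 1 (ratio 10.96, interval 1.81 to 448, or 6.81 without vehicle retina 7251 and at least 1.39-fold without 7250) and bipolar cells 24 against 2 (ratio 10.9, interval 2.70 to 94.8). In cones (9 against 2, interval 0.958 to 44.0) and PAX2 and GFAP glia (6 against 1, interval 0.394 to 149.5) the interval included 1. Horizontal cells (8 against 1) and RGCs (10 against 1) had intervals of 1.19 to 393 and 1.39 to 425.

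Whether a class changed more or less than the others was tested by setting its week 4 log2 difference against the mean difference of the other 8 classes, with retina as a block. This test was added after the data had been seen. Of 81 pairs, 16 (19.8%) were called by edgeR, beside 3.90% of all gene and class pairs. They include IRF7 in bipolar cells, whose reference mean holds the myeloid class with 0 vehicle UMIs. Some of the 81 had too few vehicle UMIs for a stable fit, such as IRF7 in RGCs and SOCS1 in Müller glia. IRF9 in horizontal cells rested on 3 vehicle UMIs. The 16 became 6 without vehicle retina 7251, 10 without 7250 and 8 with no retina block. For STAT2 the difference between a class and the others was negative in rods (−1.82, standard error 0.15, edgeR adjusted p = 8.48e-09) and cones (−1.52, standard error 0.15), for IRF9 in PAX2 and GFAP glia (−2.49, standard error 0.34), and for IFNAR2 in the myeloid class (−1.38, standard error 0.16). These 4 kept their calls under all 6 alternatives tried, none of which altered the makeup of the myeloid class. Each class difference rests in part on the same vehicle retinas as the vehicle levels. Of the other 12, STAT2 and IRF9 in horizontal cells were positive (1.40 and 3.37, standard errors 0.28 and 0.72), as were IFNAR1 and IFNGR2 in the myeloid class (1.27 and 1.00, standard errors 0.32 and 0.28) and IFNAR2 in rods (0.86, standard error 0.16), and the remaining 7 were negative. Some called differences ran against the vehicle order. STAT2 was negative in rods and cones, its highest classes in vehicle, and positive in horizontal cells, near its lowest. IRF9 was negative in PAX2 and GFAP glia, near its highest, and positive in horizontal cells, near its lowest. IFNAR2 was negative in the myeloid class, its highest. Others ran with it: IFNAR1 and IFNGR2 were positive in the myeloid class, their highest, and IFNAR1 was negative in cones, its lowest. The relation to the vehicle order was not tested. The STAT2 call in horizontal cells was lost without 7248, 7250 or 7251, and the IRF9 call without 7251.

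At week 2 each arm was a single animal, so values are given without a test. A ratio could be formed, with at least 10 UMIs in each arm, for 64 pairs, of which 26 (40.6%) were more than 2-fold higher in the AAV animal and none more than 2-fold lower, where 3.20% of all gene and class pairs were more than 2-fold higher. Among the classes with a ratio, Müller glia had the largest changes of IRF7, with 69.7 CPM in animal 7221 against 1.30 in animal 7222 (53.5-fold), of IRF1, with 35.6 against 1.61 (22.1-fold), and of STAT2, with 273 against 24.9 (10.96-fold). IRF7 was 37.0-fold higher in amacrine cells, 22.4-fold in rods and 21.8-fold in cones. IRF9 was 21.5-fold higher in amacrine cells, 20.3-fold in bipolar cells and 18.3-fold in RGCs. STAT2 was again less different in rods (136 against 88.4 CPM, 1.54-fold) and cones (101 against 69.4 CPM, 1.45-fold).

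Of the receptor ratios at week 2, 1 was over 2-fold. IFNAR1 ratios lay between 1.03-fold in RGCs and 1.93-fold in the myeloid class, IFNAR2 ratios between 1.09-fold in the myeloid class and 2.01-fold in rods, and IFNGR2 ratios between 0.560-fold in horizontal cells (9.34 against 16.7 CPM) and 1.83-fold in Müller glia (8.18 against 4.46 CPM). The eyes of the AAV animal were not alike. In Müller glia the right and left eye had 315 and 214 CPM of STAT2, 87.1 and 45.2 of IRF7 and 47.3 and 19.1 of IRF1. IRF9 was closer, at 97.9 and 84.0 CPM.

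Set side by side, the signed log2 change of IRF7 was higher at week 2 than at week 4 in each of the 5 classes with both values, that of IRF9 in 7 of 8 and that of STAT2 in 6 of 9, whereas that of IFNAR1 and IFNAR2 was higher at week 4 in 8 of 9 classes each, that of IFNGR2 in 9 of 9 and that of IRF1 in 5 of 6. That of IFNGR1 was higher at week 4 in 6 classes and at week 2 in 3. The week 2 value is a log2 ratio of CPM and the week 4 value an edgeR difference after TMM. The classes of a retina are not independent, and no share over all genes is given. These counts go by sign, so a negative change at week 2 counts as lower. The test of this difference, an interaction of treatment and week over the 6 animals, has 1 animal in each week 2 arm, which is assumed to vary like those of week 4. It called 1 of 76 pairs (1.32%), beside 0.649% of all gene and class pairs. This was STAT2 in Müller glia (−1.33, standard error 0.23, edgeR adjusted p = 0.0270), where 2.19% of all genes were called in that direction. Its level was 315 and 214 CPM at AAV week 2 and 146 and 128 at AAV week 4, and the call was lost with left eyes only and with no filter on low counts. Other pairs missed the threshold, among them IRF7 in amacrine cells (−2.01, standard error 0.41, edgeR adjusted p = 0.132) and in Müller glia (−1.31, standard error 0.35, edgeR adjusted p = 0.0820).

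**Figure D5:**
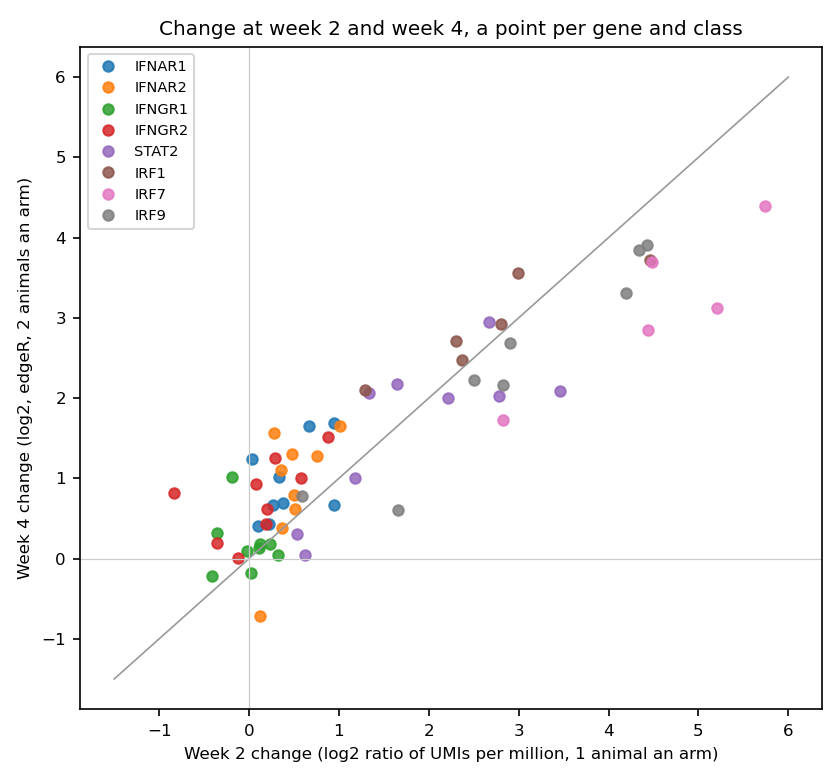
Change between AAV and vehicle at week 2 (horizontal, 1 animal per arm) and at week 4 (vertical, 2 animals per arm), both on the log2 scale, for each gene and class with both values. The line marks equal change, though week 2 is a ratio of CPM and week 4 an edgeR difference. The 5 IRF7 points lie below the line, and all 9 IFNGR2 points lie above it.

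The rest of the pathway was described with a list of 52 further genes. Of 340 pairs of listed gene and class tested at week 4, 155 were called higher and 2 lower (all genes 4.34% and 3.78%). Targets of type I interferon made 62 of 68 pairs higher and targets of type II interferon 37 of 47. No test separated a response to type I interferon from a response to type II. Of the 155, 29 had 0 vehicle UMIs and passed the count filter through the AAV retinas alone. Among pairs with vehicle UMIs, 126 of 306 were higher, with 49 of 51 for the targets of type I interferon and 25 of 34 for those of type II. MX1, which traps incoming viral particles, IFI6 and BST2, which tethers virions at the membrane, were called in 9 classes each, as was the GTPase GBP1. PSMB9, a subunit of the immunoproteasome, was called in 8 and the chemokine CXCL10 in 7.

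Upstream, other IRFs gave 9 of the 35 pairs with vehicle UMIs higher. STAT3 was called in 7 classes (0.82 to 1.39), STAT4 in rods and cones, IRF2, a repressor of interferon targets, in 6 classes (0.53 to 1.34), and IRF5 in 2. IRF4, a factor of lymphocytes, had 0 vehicle UMIs in rods, cones and bipolar cells, the 3 classes in which it was tested, and entered these tests through the AAV retinas alone (128 and 114 UMIs in rods, 13 and 31 in cones and 16 and 33 in bipolar cells). The kinases gave 3 of 31 pairs: JAK2 in PAX2 and GFAP glia (0.83) and the myeloid class (1.53), and JAK3, a kinase of lymphocytes, in rods.

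IL10RB, a chain of the interferon lambda and interleukin-10 receptors, was called in 5 classes (1.12 to 3.57), and IL10RA in cones and the myeloid class. IL10RB starts 965 bases beyond the end of IFNAR2 on the same strand, and IFNAR1 and IFNGR2 follow it on chromosome 13 (IFNAR2 at 196765915 to 196852640, IFNAR1 at 196925731 to 196951398 and IFNGR2 at 197007303 to 197035604, Sscrofa11.1). Among the feedback genes 15 of 84 pairs were higher, 1 of them with 0 vehicle UMIs, which entered through the AAV retinas alone. Among pairs with vehicle UMIs, 14 of 83 were higher. USP18, which dampens signalling at IFNAR2, was called in 8 classes, and SOCS3 and PTPN6 in 2 each, both in rods and Müller glia.

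Of the 5 ligands listed by symbol (IFNB1, IFNA1, IFNK, IFNE and IFNG), IFNE was the one with enough counts to be tested. Other interferons were not examined, and 18050 of the 35683 genes carry no symbol. IFNB1 gave 1 UMI in all. IFNG gave 56 UMIs at AAV week 4, 46 of them in T or NK cells (11.4 CPM of that class), and between 4 and 8 in each other group. IFNE was present in cones, at 72.3 CPM at AAV week 4 and 58.0 at Vehicle week 4, and was called lower in PAX2 and GFAP glia (23.2 and 33.7 against 67.1 and 63.0 CPM, log2 difference −1.17, standard error 0.25) and in rods (0.406 and 0.270 against 1.01 and 2.35 CPM, −2.18, standard error 0.52). Only retinal nuclei were measured, so transcripts made elsewhere in the eye would not be seen here.

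Over 72 sums of class and retina and 14409 genes, the genes whose log2 level ran most like each member differed between receptors and transcription factors. These correlations describe sums that share libraries, depth and the difference between treatments. IFNAR2 was most like APAF1 (Pearson r 0.946), RIPK1 and ARHGAP15, IFNGR1 most like RGS10 (0.964), FMNL1 and ARPC2, IFNGR2 like CYFIP1 (0.921), SSH2 and ARHGAP15, and IFNAR1 like GAB3 (0.875), CTSZ and IL4R. Among the genes most like STAT2 were OTUD4 (0.830) and TAPBP, and among those most like IRF9 were IFI44L (0.913) and PARP12. IRF7 was most like ISG15 (0.935), ISG12(A) and RSAD2, and IRF1 like PARP14 (0.911), MX2 and PSMB8.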

How the data were processed

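Nuclei from frozen retinas were sorted and run on a droplet platform in 4 lanes per retina. Per the methods, the authors counted reads with Cell Ranger 8.0.0 on the pig genome Sscrofa 11.1 plus the transgene, and deposited raw UMI counts per nucleus, which start at 500 UMIs per barcode.

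From these counts, barcodes with a posterior above 0.75 of a high mitochondrial share were removed (a mixture regression after miQC), and nuclei were gated into classes on marker genes (posterior 0.99, at least 2 markers). No doublet caller was run, and a stricter gate was an alternative. UMIs were summed per class and retina, or per animal where week 2 entered a test. Tests used edgeR 4.0.16 (quasi-likelihood, TMM, filterByExpr) in R 4.3.3, with Benjamini-Hochberg adjustment over all genes of a class and a threshold of 0.05. DESeq2 1.42.0 was an alternative, and the code was tested on simulated data. Levels are UMIs per 1000000 of a class. Intervals are 95% Poisson or exact binomial intervals. At week 4, with 2 animals per arm, edgeR draws the spread behind a p-value partly from other genes. In both tests between classes, the spread is that of class sums from the same few animals. Those p-values therefore do not measure the spread between animals alone.

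All 9 members are named in the classes tested, other pathway genes by how many classes called them, at most 3 per role. The members, marker lists and pathway list were chosen with earlier results of these data known. Results for 1 gene of the pathway list are not reported here.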

Additional observations from a re-analysis of the deposited data

Results flagged for a closer look

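A tested difference between weeks or between classes set the following results apart, all on the log2 scale. The change of STAT2 in Müller glia was smaller at week 4 than at week 2, by −1.33 (edgeR interaction). With 1 animal in each week 2 arm, this test rests on the spread of the week 4 animals, and the call was lost with left eyes only and with no filter on low counts.

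In the comparison of each class with the mean change of the other classes at week 4, a test chosen after the data had been seen, 16 values passed. For STAT2 they were −1.82 in rods, −1.52 in cones, −0.71 in bipolar cells and 1.40 in horizontal cells. For IRF9 they were −0.69 in rods, 3.37 in horizontal cells, −0.89 in Müller glia and −2.49 in PAX2 and GFAP glia, and for IRF7 −2.99 in bipolar cells. That IRF7 value leans on the myeloid class, in which both vehicle retinas held 0 UMIs, so its size is not exact. Its call rests in part on that class. The IRF9 value in horizontal cells rests on 3 vehicle UMIs, all in retina 7250, so its size is not exact either. It is part of the mean behind the other IRF9 values. For IFNAR1 they were −0.61 in cones, −0.64 in amacrine cells, −0.47 in Müller glia and 1.27 in the myeloid class. For IFNAR2 they were 0.86 in rods and −1.38 in the myeloid class, and for IFNGR2 1.00 in the myeloid class. Of these 16, STAT2 in rods and cones, IRF9 in PAX2 and GFAP glia and IFNAR2 in the myeloid class kept their calls under all 6 alternatives. IFNAR1 in amacrine cells and Müller glia lost them under all 6. IFNAR1 in cones lost its call under 4, STAT2 in bipolar and horizontal cells, IRF9 in rods and IFNAR1 and IFNGR2 in the myeloid class under 3, IFNAR2 in rods and IRF9 in Müller glia under 2, and IRF7 in bipolar and IRF9 in horizontal cells under 1. None of the 6 altered the makeup of the myeloid class.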

How the results depend on the processing

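The 45 calls at week 4 ranged from 36, with week as a covariate over 3 against 3 animals, to 51, with no filter on low counts, and from 39 to 48 when a week 4 retina was left out, and no member changed direction. In the myeloid class the median over all genes was 0.13 (log2) with TMM and −0.01 with totals alone, and 43 pairs were called with totals. The 55 calls between vehicle classes ranged from 54 to 58, and from 37 to 54 without 1 vehicle animal. IRF9 in cones, −0.61, ranged from −0.72 without animal 7251 to 0.15 without animal 7222. The week 2 count of 26 ranged from 21 to 26. The count over 2-fold lower, 0, became 1 with right eyes only and 1 under the stricter gate. The single call between weeks became 2 with no filter on low counts and 2 to 3 without a week 4 retina. It was lost with left eyes only and with no filter on low counts. The 16 calls between classes became 8 with no retina block and 6 to 16 without a retina, with 10 lacking vehicle retina 7250 and 6 lacking 7251. No paired analysis was possible because the groups share no replicate numbers. The causes were not tested. Depth limits SOCS1 in every class and IRF1, IRF7 and IRF9 in the vehicle myeloid class, which held 251185 UMIs at week 4.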
